A study of Mus musculus with 35 samples.

Results

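The fasting response of the hypothalamus was described in the control mice of the series, as the difference between 10 fasted and 10 fed control libraries, which are 20 of its 35 libraries. They were chosen by label alone: all libraries labelled control, fasted, against all labelled control, fed ad libitum. Both groups were male mice of strain B6/J with the genotype given as control, and their age, their housing and how the control genotype was bred are not given in the sources used here. The fed mice ate ad libitum, the fasted mice went 16 h without food from lights-on, and the label of every sample gives Zeitgeber time 16, that is 16 h after lights-on and so in the dark phase, when mice usually eat. The remaining 15 libraries came from mice with altered PER2, a clock protein, and served here only for a common estimate of the spread. A block of tissue around the hypothalamus was dissected, so each library mixes all of its cell types, and polyA RNA was sequenced. The labels do not say that each library came from 1 mouse, and if libraries shared a mouse the p-values would measure technical spread.

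Fasting lowers insulin, leptin and blood glucose and raises glucocorticoids, which enter the brain and act through the glucocorticoid receptor, a transcription factor. In the arcuate nucleus of the hypothalamus, neurons that make the peptides AgRP and NPY drive feeding and are active in hunger, while neurons that make POMC oppose them. Body tissues turn from glucose to fatty acids and ketones in a fast, partly under FoxO transcription factors, which insulin restrains.

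The control libraries held 17959586 to 22036714 counts. Mitochondrial genes took 7.05% ± 0.232 of counts in the fed and 7.34% ± 0.577 in the fasted libraries (SD, n = 10 each; two-sided permutation test, p = 0.152; adjusted over the 3 shares compared, 0.375). Libraries divide into replicates 1 to 5 and 6 to 10, whose library numbers form separate ranges in the file headers; what the ranges mark is not stated there. Markers of the choroid plexus, the ventricular tissue that makes cerebrospinal fluid, stood apart in fed replicate 2 and fasted replicates 8 and 9: their summed level was 1664.08, 2422.65 and 2105.83 CPM (counts scaled to library size), against 223.9 to 520.39 CPM in the other 17 control libraries. The tissue label was set beside neuropeptide genes and markers of other brain regions. The 25 hypothalamic neuropeptide genes listed summed to 2135 to 2454 CPM in the fed and 2286 to 2665 CPM in the fasted libraries. In the same order, 12 cortex and hippocampus markers summed to 321.2 to 447 and 293.9 to 387.1 CPM. The 12 striatum markers summed to 276.9 to 340.4 and 283.1 to 343.6 CPM. Thalamus markers (11) were nearer the neuropeptide sum, at 1906 to 2231 and 1880 to 2265 CPM.

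Fasting changed many genes by small amounts and a few by a lot. Of 18063 genes tested, 397 (2.2%) were called higher and 304 (1.68%) lower in the fasted mice, 3.88% in all, where a called gene has a p below 0.05 in edgeR's quasi-likelihood test after Benjamini-Hochberg adjustment over all genes tested. The median size of a called change was 0.33 on the log2 scale. A change of at least 1 (a doubling or halving) was reached by 48 of the genes called higher and 6 of those called lower. In 67 genes called higher (0.371% of genes tested) every fasted library lay above every fed one, and in 26 called lower (0.144%) every fasted library lay below.

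Sgk1 and Cdkn1a, both glucocorticoid-responsive, were among the genes that rose by more than 1 on the log2 scale. Sgk1, a kinase that regulates ion transport (mm10, chromosome 10, 21882184 to 21999903, plus strand), ran from 40.9 CPM over a median of 64.3 to 89.5 CPM in the fed libraries and from 114 over 264 to 301 CPM in the fasted ones. Every fasted library lay above every fed library, and the log2 fold change was 1.87 ± 0.15 (SE; adjusted p = 1.91e-09). Cdkn1a, which encodes the cell cycle inhibitor p21 (chromosome 17, 29090979 to 29100722, plus strand), ran from 5.81 over 7.65 to 11.2 CPM in the fed and from 17.1 over 59.0 to 79.0 CPM in the fasted libraries, a log2 fold change of 2.64 ± 0.30 (adjusted p = 4.90e-07). Its groups did not overlap either. The fasted libraries of Cdkn1a were spread widely, with fasted replicates 6 to 9 at 17.1 to 26.2 CPM and fasted replicates 1 to 5 and 10 at 54.9 to 79.0 CPM.

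**Figure D1:**
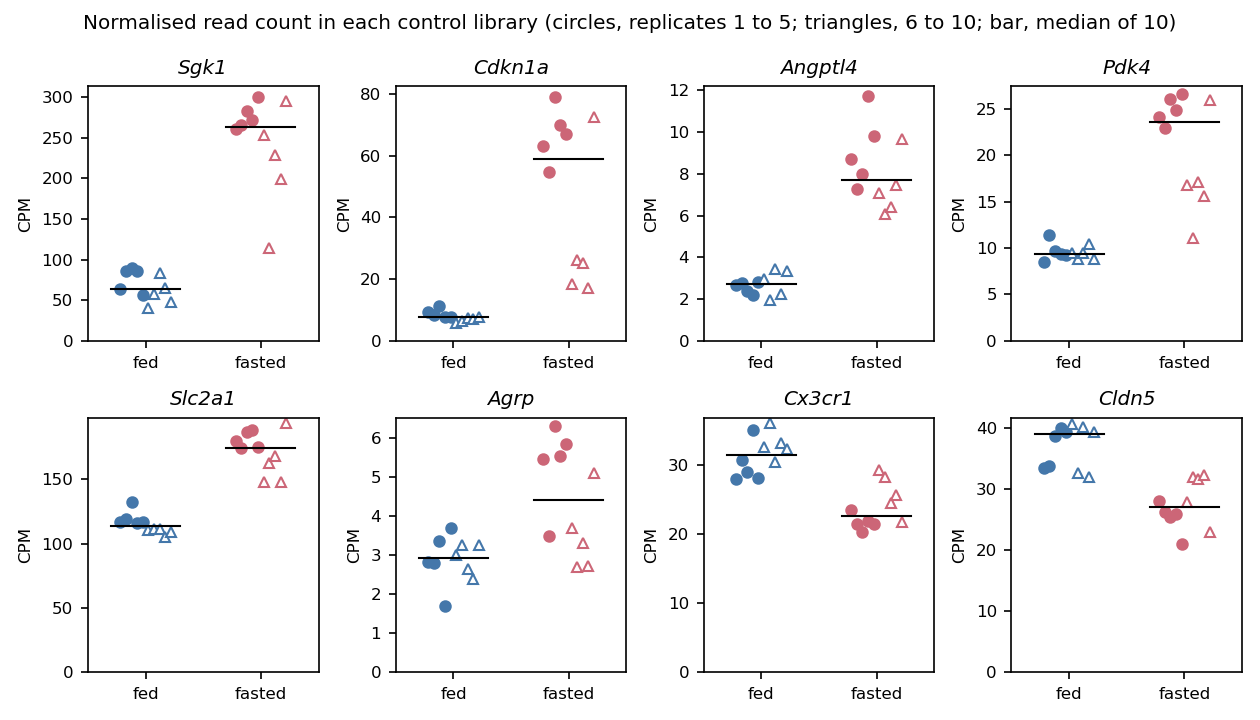
Normalised read count (CPM, linear axis from 0) of 8 genes in each of the 10 fed and 10 fasted control libraries; filled circles are replicates 1 to 5, open triangles replicates 6 to 10, and bars the median of 10. All fasted points of Sgk1, Cdkn1a, Angptl4 and Slc2a1 lie above all fed points, the fasted points of Agrp overlap the fed ones, and those of Cx3cr1 and Cldn5 lie mostly below.

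That order among the fasted libraries recurred in other genes. The stress-induced chaperone Fkbp5, a brake on the glucocorticoid receptor, was at 72.5 to 85.5 CPM in fasted replicates 1 to 5, at 38.8 to 58.7 CPM in 6 to 9 and at 83.0 CPM in fasted replicate 10, against 28.0 to 39.7 CPM in the fed libraries. Pdk4, a kinase that shuts pyruvate out of the mitochondrial citric acid cycle (chromosome 6, 5483351 to 5496309, minus strand), was at 23 to 26.5, 11.1 to 17.1 and 26.0 CPM in the same fasted libraries and at 8.45 to 11.5 CPM in the fed ones. In both genes fasted replicate 10 lay with replicates 1 to 5. The libraries were not regrouped by these values, and the labels give no difference between them.

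Each set of replicates was then fitted separately, to see whether the response kept its direction. The largest changes did, and the small ones mostly did not. Replicates 1 to 5 alone gave 2536 called genes (15.0% of 16934 tested) and replicates 6 to 10 alone gave 1137 (6.68% of 17016). The genes called higher and lower were 7.06% and 7.91% of those tested in replicates 1 to 5 and 3.23% and 3.46% in 6 to 10. Of the genes called in replicates 1 to 5 with a log2 change of at least 1, 61 of 71 (85.9%) had the same sign in replicates 6 to 10, and of those with a change under 0.25 only 314 of 1322 (23.8%) did. Read the other way, 34 of 42 large changes (81.0%) and 169 of 623 small ones (27.1%) kept their sign. Over all 16748 genes tested in both sets 40.9% had the same sign, and Pearson's r between the fold changes was 0.03, a description across genes that are not independent.

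The difference between the sets was itself tested, as an interaction over the 20 control libraries. It was called in 2956 of 17655 genes (16.7%), with 1535 (8.69%) more positive and 1421 (8.05%) more negative in replicates 6 to 10, and 29.9% of genes had an unadjusted p below 0.05. Of the called genes tested in both sets, 2783 of 2939 (94.7%) had opposite signs in them. Among genes called for fasting over all libraries and tested in both sets, it was called in 88 of 684 (12.9%). In 683 of these 684 the sign was the same in both sets, but both sets entered that call, so this count is a description. A total of 253 genes were called in each set with the same sign and over all libraries, 161 higher and 92 lower.

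**Figure D2:**
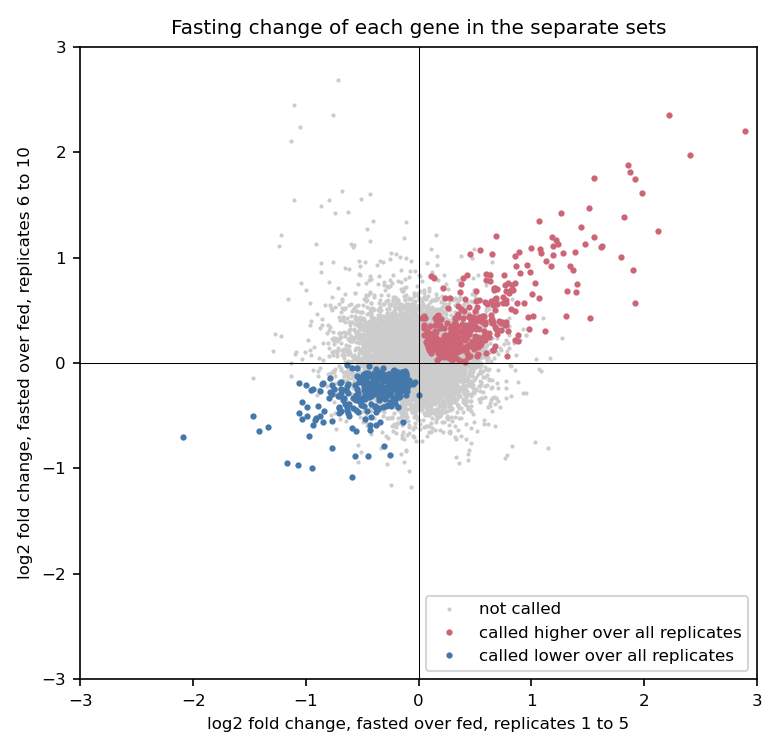
Log2 fold change, fasted over fed, of each gene in replicates 1 to 5 (horizontal) and 6 to 10 (vertical); grey points were not called over all replicates, red points were called higher and blue points called lower. The grey cloud of small changes shows no positive slope (r = 0.03 over all genes). Called genes lie in the quadrants where both sets have the same sign, but both sets entered that call, so their place is a description.

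Respiratory chain and ribosomal protein genes moved in opposite directions in the sets. Among 80 tested nuclear genes of the respiratory chain, which makes ATP from oxygen and fuel, 42 were called lower and 0 higher in replicates 1 to 5 (median log2 fold change -0.19), and 9 were called higher and 0 lower in replicates 6 to 10 (median 0.20). The interaction was called in 59 of 79, against 16.7% of all genes tested for it. Over all genes tested, 7.91% were called lower in replicates 1 to 5 and 3.23% higher in 6 to 10. Over all libraries 0 of 80 passed edgeR's test, and 0 had an unadjusted p below 0.05, which 13.3% of all genes tested had. Cytosolic ribosomal protein genes gave 46 called lower in replicates 1 to 5 (median -0.18) and 3 called higher in 6 to 10 (median 0.16), with an interaction in 58 of 79 and 0 of 80 called over all libraries, where 1 had an unadjusted p below 0.05. GABA and glutamate receptor subunits, the channels of fast synaptic signalling, did the reverse: 7 of 30 were called higher in replicates 1 to 5 and 9 lower in 6 to 10. Over all genes tested these shares were 7.06% and 3.46%.

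Gene length moved with this split. Genes were split by exon length into 5 bins of like size. In the bin of the shortest genes (exon length 56 to 1940 bases) the median log2 fold change was -0.09 in replicates 1 to 5 and 0.10 in 6 to 10, and in that of the longest (6754 to 123200 bases) it was 0.07 and -0.06, while over all replicates both medians were within 0.01 of 0. With the level of the respiratory-chain genes as a term in the fit, chosen after seeing the data, edgeR called 0 genes for the difference between sets (773 at an unadjusted p below 0.05) and 1088 for fasting; no other tool was run with this term. The respiratory-chain level follows feeding in opposite ways in the sets, so the term and the difference cannot be told apart. Without the 3 libraries richest in choroid plexus RNA, the difference was called in 2288 genes. Values of both sets are given below for many of the lists and genes.

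**Figure D3:**
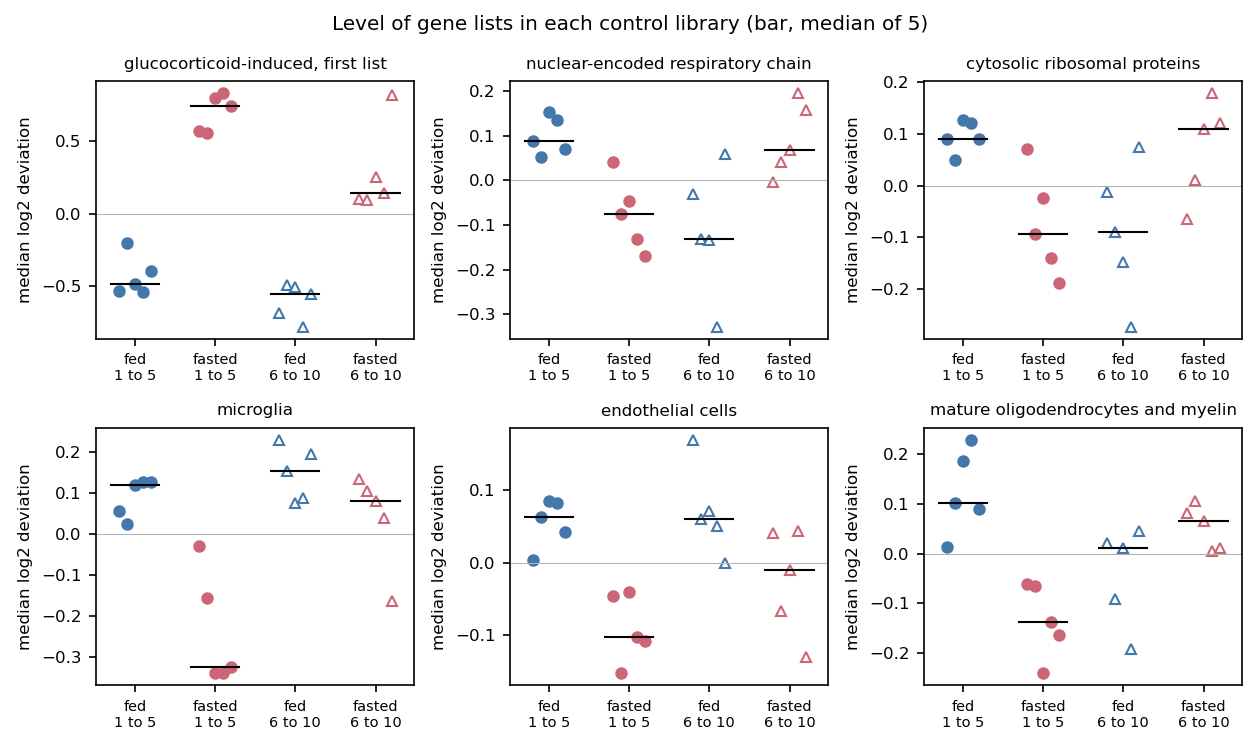
Level of 6 gene lists in each control library, as the median over members of log2(CPM + 0.5) minus the member's mean over the 20 libraries; circles are replicates 1 to 5, triangles 6 to 10, bars the median of 5. Glucocorticoid-induced genes are higher in the fasted libraries of both sets, whereas the respiratory chain runs from a median of 0.087 (fed) to -0.075 (fasted) in replicates 1 to 5 and from -0.132 to 0.068 in 6 to 10.

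Most listed genes that glucocorticoids induce rose. All 17 members of a first list, drawn up for an earlier analysis of these data, were called higher (background 2.2%), with a median log2 fold change of 1.2 over all libraries, 1.31 in replicates 1 to 5 and 1.11 in 6 to 10. A further 23 tested genes of the same kind, not in that list, gave 16 called higher and 1 called lower, with a median of 0.36 (0.40 and 0.36 in the sets) beside a median of 0.00 over all genes tested. The interaction was called in 0 of the 17 and in 4 of the 23, against 16.7% of all genes tested for it. Both lists were chosen with earlier results of these data known, so these counts are descriptions and no independent support.

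The first list spans lipid storage, ion transport and feedback on the hormone itself. Plin4, a coat protein of lipid droplets, rose by 1.85 ± 0.21, from 14.6 to 40.5 CPM in the fed to 39.2 to 134 CPM in the fasted libraries. Nfkbia, the inhibitor of the inflammatory factor NF-kB, rose by 0.95 ± 0.11, and Tsc22d3, which encodes the anti-inflammatory protein GILZ, by 0.76 ± 0.08, without overlap between groups in either gene. The metal-binding metallothionein Mt1 rose by 0.70 ± 0.08, from 138 to 220 CPM in the fed to 238 to 374 CPM in the fasted libraries. Ddit4, an inhibitor of the growth kinase complex mTORC1, rose by 0.93 ± 0.11. Hif3a (1.32), Zbtb16 (1.49), Sult1a1 (1.41), Arrdc2 (1.83), Errfi1 (0.46), Klf9 (0.32) and Klf15 (0.46) rose as well.

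Further glucocorticoid-responsive genes rose by less. Sgk3, a kinase related to Sgk1, ran from 8.81 to 13.7 CPM in the fed and from 11.2 to 48.8 CPM in the fasted libraries (log2 fold change 1.47 ± 0.23; 1.90 and 0.88 in the sets). Its groups overlapped in fasted replicates 6 and 9. Xdh, which makes uric acid in purine breakdown, rose by 0.88 ± 0.16, and Mertk, a receptor by which glia engulf debris, by 0.65 ± 0.09. Acer2, a ceramidase, rose by 0.70 ± 0.08 (adjusted p = 1.95e-08) and Per1, a clock gene, by 0.36 ± 0.05, both without overlap between groups. Cebpd, an inflammatory transcription factor, rose by 0.96 ± 0.18, but more than 10% of its exon sequence is shared with another gene, so that value is uncertain in counts made without strand. Litaf fell by 0.18 ± 0.06 with an adjusted p of 0.0497, a call lost without scaling beyond library size and when any of 15 of the 20 libraries was left out (adjusted p up to 0.117).

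Nr3c1, the glucocorticoid receptor itself, fell by 0.25 ± 0.05 (adjusted p = 0.00154; -0.18 and -0.32 in the sets). It was the single member called among 15 tested receptors, chaperones and stress-axis genes (background 1.68% lower and 2.2% higher). Crh, the peptide that starts the hormonal stress response, was at 2.41 to 4.93 CPM in the fed and 2.22 to 7.00 CPM in the fasted libraries and did not pass the test (log2 fold change 0.29 ± 0.17), with 0.69 in replicates 1 to 5 and -0.19 in 6 to 10.

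Promoters of the genes called higher were searched for the palindrome that the glucocorticoid receptor binds, GNACANNNTGTNC on either strand, in the 250 bases before each RefSeq gene start (build GRCm38.p6; 12294 of 18063 tested genes had an entry). It was found in 8 of 308 genes called higher (2.6%), 1 of 230 called lower (0.435%) and 39 of all 12294 (0.317%). The 8 were Sgk1, Map3k6, Txnip, Mt1, Fam107a, Tinagl1, Kcna5 and Ptpdc1. Below are the 4 that rose most, shown as examples of a match in a gene called higher, with the match in capitals. They lie at chr10:21993640-21993889 (Sgk1), chr4:133240568-133240817 (Map3k6), chr3:96557707-96557956 (Txnip) and chr8:94178839-94179088 (Mt1), all on the plus strand.
Sgk1: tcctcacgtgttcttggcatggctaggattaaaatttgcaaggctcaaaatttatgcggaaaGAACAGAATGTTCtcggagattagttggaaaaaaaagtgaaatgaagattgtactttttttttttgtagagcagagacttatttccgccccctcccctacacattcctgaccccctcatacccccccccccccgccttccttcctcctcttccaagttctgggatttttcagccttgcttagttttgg
Map3k6: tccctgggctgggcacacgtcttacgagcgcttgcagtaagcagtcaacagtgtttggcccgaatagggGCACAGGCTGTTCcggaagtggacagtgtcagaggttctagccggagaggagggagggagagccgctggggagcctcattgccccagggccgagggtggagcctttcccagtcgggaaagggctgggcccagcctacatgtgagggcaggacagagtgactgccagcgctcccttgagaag
Txnip: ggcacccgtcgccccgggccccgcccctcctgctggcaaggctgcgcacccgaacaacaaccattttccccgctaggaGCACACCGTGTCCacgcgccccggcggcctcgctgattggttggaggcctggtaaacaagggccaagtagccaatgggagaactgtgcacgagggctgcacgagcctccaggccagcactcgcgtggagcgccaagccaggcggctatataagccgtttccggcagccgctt
Mt1: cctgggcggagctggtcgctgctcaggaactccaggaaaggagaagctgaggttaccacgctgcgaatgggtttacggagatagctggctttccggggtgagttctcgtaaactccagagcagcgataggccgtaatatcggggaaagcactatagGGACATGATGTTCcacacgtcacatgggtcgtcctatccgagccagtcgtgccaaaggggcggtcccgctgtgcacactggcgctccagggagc
The match starts 188, 181, 172 and 94 bases before the RefSeq gene start in that order. That start can differ from the start of the gene coordinates given elsewhere, and for Sgk1 it lies inside them. Map3k6, a stress kinase, rose by 1.2 ± 0.17, and Fam107a, an actin-binding protein induced by stress, by 0.58 ± 0.09 (0.74 and 0.39 in the sets).

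Other motifs were closer to their background. The heat-shock element (GAANNTTCNNGAA) was in 0.325% of promoters called higher, 0 of 230 called lower and 0.456% of all. The interferon-stimulated element (GAAANNGAAA) was in 3.25%, 0.87% and 3.1%, the cyclic AMP response element (TGACGTCA) in 3.9%, 1.74% and 2.9%, the D-box (TTATGTAA) in 0.649%, 0.435% and 0.667% and the E-box (CACGTG) in 12%, 7.83% and 9.35%. These are matches of letters on either strand, not binding sites.

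Of 22 tested FoxO targets and genes of low insulin, 7 were called higher and 1 lower (background 2.2% and 1.68%). The median was 0.09 (0.20 and 0.02 in the sets). Txnip, which blocks glucose uptake and binds thioredoxin (chromosome 3, 96557957 to 96561883, plus strand), rose by 1.19 ± 0.10 (1.24 and 1.13 in the sets), from 14.6 to 20.6 CPM in the fed to 25.5 to 51.7 CPM in the fasted libraries, though more than 10% of its exon sequence lies in another gene as well. Pdk4 rose by 1.15 ± 0.12 (1.37 and 0.88). Foxo1, the transcription factor itself, rose by 0.34 ± 0.08, with 0.52 in replicates 1 to 5 and 0.16 in 6 to 10. Trib1 (0.50), Klf2 (0.49), Cited2 (0.39) and Sesn1 (0.35) rose too, while Fbxo32, a ubiquitin ligase of muscle wasting, fell by 0.31 ± 0.06. The interaction was called for Cited2 and Sesn1, whose rise was smaller in replicates 6 to 10.

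**Figure D4:**
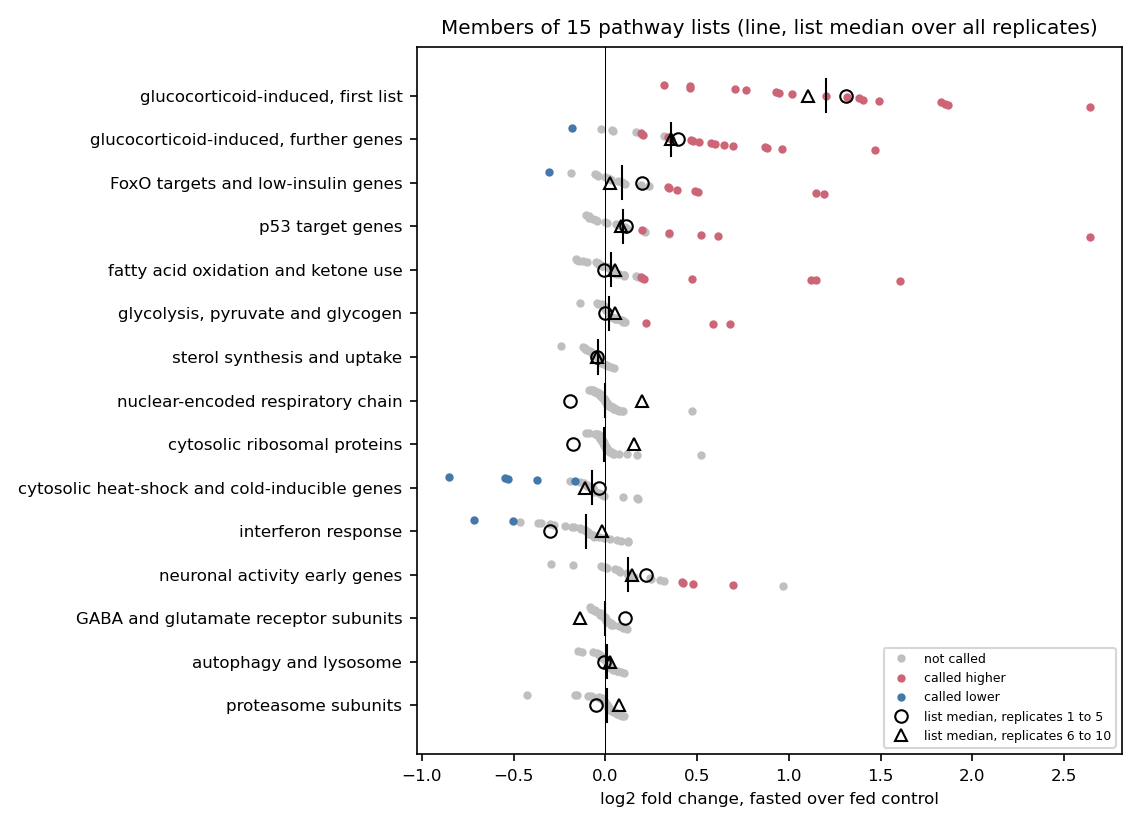
Log2 fold change, fasted over fed control, of every tested member of 15 pathway lists; red points were called higher, blue called lower and grey not called, the black line is the list median over all replicates, and the open circle and triangle are the list medians in replicates 1 to 5 and 6 to 10. Glucocorticoid-induced genes lie to the right in both sets, whereas the medians of the respiratory chain (-0.19 and 0.20) and of ribosomal proteins (-0.18 and 0.16) fall on opposite sides of 0.

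Most genes of fatty acid oxidation were not called. Among 40 tested genes of fatty acid oxidation and ketone use, 7 were called higher and 0 lower (background 2.2% and 1.68%). The median was 0.03 (-0.01 and 0.05 in the sets). Angptl4, a secreted inhibitor of lipoprotein lipase (chromosome 17, 33773750 to 33781575, minus strand), ran from 1.97 over 2.72 to 3.46 CPM in the fed and from 6.10 over 7.71 to 11.7 CPM in the fasted libraries, a log2 fold change of 1.61 ± 0.18 (adjusted p = 2.18e-07; 1.82 and 1.38 in the sets). The groups did not overlap. Ucp2, a mitochondrial carrier, rose by 0.47 ± 0.06, also without overlap. Smaller rises were called for Cpt2, Pdk2 and Eci2 (0.21, 0.20 and 0.19), which act in fatty acid import, pyruvate control and the oxidation of unsaturated fatty acids.

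Adipor2, a receptor for the fat hormone adiponectin (chromosome 6, 119353150 to 119417704, minus strand), had the lowest p of all genes called higher. It ran from 88.0 to 113 CPM in the fed and from 131 to 166 CPM in the fasted libraries, with a log2 fold change of 0.59 ± 0.05 (adjusted p = 4.77e-10), 0.61 and 0.56 in the sets. Pnpla2, the lipase that starts the breakdown of stored triglyceride, rose by 0.85 ± 0.12 without overlap; it was chosen after its value was seen. Sterol synthesis and uptake gave 0 of 26 genes called by edgeR, with 5 at an unadjusted p below 0.05 (13.3% of all genes tested), 22 of 26 values negative and a median of -0.04 in both sets.

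Of 35 tested genes of glycolysis, pyruvate and glycogen, 3 were called higher and 0 lower (background 2.2% and 1.68%), and the median was 0.02. Slc2a1, the glucose transporter GLUT1 of the blood-brain barrier and glia (chromosome 4, 119108711 to 119137983, plus strand), ran from 105 over 114 to 133 CPM in the fed and from 147 over 174 to 193 CPM in the fasted libraries. Every fasted library was above every fed one, and the log2 fold change was 0.58 ± 0.08 (0.59 and 0.58 in the sets). Ppp1r3g, which targets a phosphatase to glycogen, rose by 0.68 ± 0.11 and Pygm, a glycogen phosphorylase, by 0.22 ± 0.05.

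Of 22 listed p53 targets 5 were called higher and 0 lower (background 2.2% and 1.68%), and the list median was 0.10. The 5 were Cdkn1a, Fas (0.62 ± 0.15), Trp53inp1 (0.52 ± 0.07, with 0.73 and 0.31 in the sets), Sesn1 and Ccng1 (0.20 ± 0.05, with 0.33 and 0.05). The call for Ccng1 was lost without fed replicate 1 or fasted replicate 1, 3 or 5 (adjusted p up to 0.0633). Cdkn1a and Sesn1 also stand in the lists above. Of 20 cell cycle genes edgeR called 0, with 3 at an unadjusted p below 0.05.

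Of 24 tested cytosolic heat-shock and cold-inducible genes 0 were called higher and 5 lower (background 2.2% and 1.68%), 4 of these 5 with uncertain values. Of the 24 values 21 were negative (median -0.07, with -0.03 and -0.11 in the sets). Hspb1, a small chaperone, fell by 0.53 ± 0.11, from 13.2 to 18 CPM in the fed to 7.97 to 13.6 CPM in the fasted libraries, and Dnajb1, a partner of HSP70, fell by 0.17 ± 0.04. The HSP70 genes Hspa1b (-0.85 ± 0.18) and Hspa1a (-0.55 ± 0.13) are near-identical copies, with over 60% of their 50-base words shared with other genes, and every alignment of a read was counted, so their separate values are uncertain. Hspb1 (48.8% shared) and the lens and glial chaperone Cryab (-0.37 ± 0.06; exon overlap over 10%) are uncertain for the same kind of reason.

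Protein folding in the endoplasmic reticulum gave 1 call, and amino acid supply gave several. Of 21 tested amino acid transporters 1 was called higher and 4 lower (background 2.2% and 1.68%). Of 22 tested genes of amino acid and integrated stress, 2 were called higher and 1 lower. Herpud1 rose by 0.16 ± 0.05, the single call among 22 unfolded protein response genes, and Hspa5, the main chaperone there, was at -0.09 ± 0.05 and not called. Psat1, an enzyme of serine synthesis, rose by 0.22 ± 0.04 and the amino acid transporter Slc7a5 by 0.23 ± 0.05. The transporters Slc38a5 (-0.75 ± 0.21, glutamine), Slc7a11 (-0.35 ± 0.08, cystine; -0.14 and -0.56 in the sets) and Slc6a6 (-0.23 ± 0.04, taurine) fell. Herpud1 was no longer called without fed replicate 10 or fasted replicate 1, 4 or 5 (adjusted p up to 0.0657), nor Slc38a5 without fed 4, 6 or 7 or fasted 2, 3, 4, 8 or 10 (up to 0.073). Srxn1, an enzyme that repairs oxidised peroxiredoxin, rose by 0.24 ± 0.04 without overlap. EdgeR called 0 of 46 proteasome subunits, 0 of 32 autophagy and lysosome genes and 0 of 55 translation factors, with 2, 5 and 6 at an unadjusted p below 0.05, against 13.3% of all genes tested.

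Microglia are the resident macrophages of the brain, and 7 of their 24 markers fell in the fasted mice. In these bulk libraries fewer cells of a type and less RNA per cell cannot be told apart, here and in the other cell classes. All 24 markers tested had a negative log2 fold change and 7 were called lower (background 1.68%), with a median of -0.24, -0.37 in replicates 1 to 5 and -0.08 in 6 to 10. The summed level of the list ran from 519.1 to 587.3 CPM in the fed and from 418.5 to 584.2 CPM in the fasted libraries, and no marker was at 0.

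Of the 7 called markers the fractalkine receptor Cx3cr1 (chromosome 9, 119901616 to 120069879, minus strand) ran from 27.9 over 31.5 to 36.0 CPM in the fed and from 20.2 over 22.6 to 29.3 CPM in the fasted libraries, a fall of 0.41 ± 0.06 (adjusted p = 1.13e-05; -0.48 and -0.35 in the sets). Of the fasted libraries 8 lay below all fed ones. The purine receptors P2ry12 and P2ry13 fell by 0.34 ± 0.07 and 0.46 ± 0.11 (P2ry13 -0.77 and -0.21 in the sets), the transcription factor Sall1 by 0.40 ± 0.06, Gpr34 by 0.35 ± 0.09 and Ly86 by 0.45 ± 0.08. Cd180, a receptor related to toll-like receptors that pairs with the Ly86 protein, fell by 1.03 ± 0.21 at a low level (0.796 to 2.61 CPM in the fed, 0.377 to 1.35 CPM in the fasted libraries). The complement gene C1qa was not called, at -0.38 in replicates 1 to 5 and 0.17 in 6 to 10. Its interaction was called, as it was in 6 of the 24 markers (16.7% of all genes tested for it). Replicates 1 to 5 alone gave 16 markers called lower and replicates 6 to 10 gave 5, against 7.91% and 3.46% of all genes tested.

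Inflammatory genes were mixed. Of 19 tested NF-kB and cytokine genes, 3 were called higher and 2 lower (background 2.2% and 1.68%). Socs3, a feedback inhibitor of cytokine and leptin receptors, fell by 0.49 ± 0.13 (adjusted p = 0.0229), a call lost without fed replicate 2 or 6 or fasted replicate 3, 4, 5 or 10 (adjusted p up to 0.0645). Of 29 interferon-responsive genes, 24 were negative and 2 were called lower, the guanylate-binding proteins Gbp4 (-0.72 ± 0.19) and Gbp2 (-0.51 ± 0.13); the list median was -0.30 in replicates 1 to 5 and -0.02 in 6 to 10.

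Endothelial cells form the blood-brain barrier. Of 22 markers, 7 were called lower and 2 higher (background 1.68% and 2.2%), with a median of -0.13 (-0.12 and -0.09 in the sets). The tight-junction gene Cldn5 (chromosome 16, 18776847 to 18778260, plus strand) ran from 31.9 over 39.0 to 40.7 CPM in the fed and from 21.1 over 27.1 to 32.4 CPM in the fasted libraries, a fall of 0.43 ± 0.07 (adjusted p = 4.39e-05; -0.55 and -0.33 in the sets). The growth factor receptor Kdr fell by 0.49 ± 0.11, and the angiopoietin receptors Tek and Tie1 by 0.42 ± 0.09 and 0.33 ± 0.07, with every fasted library below every fed one for Tie1. Gkn3 (-0.91 ± 0.21), Emcn (-0.40 ± 0.10) and Itm2a (-0.30 ± 0.05) fell also.

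The endothelial genes that rose were Slc2a1, given above, and Mfsd2a, which carries omega-3 lysophospholipids across the barrier and rose by 0.87 ± 0.13 (1.07 and 0.61 in the sets). Glia also use the glucose transporter, and Mfsd2a also stands in the further glucocorticoid list. The general endothelial genes Pecam1 (-0.09 ± 0.06) and Cdh5 (-0.16 ± 0.09) were not called. The summed level of all 22 markers was 653.7 to 731 CPM in the fed and 696.7 to 751.4 CPM in the fasted libraries. The mean sum went from 689.7 to 722.7 CPM, from 574.9 to 550.5 CPM without Slc2a1, and from 545.4 to 496.6 CPM without Slc2a1 and Mfsd2a. Calls lower numbered 8 in replicates 1 to 5 and 3 in replicates 6 to 10 alone, against 7.91% and 3.46% of all genes tested.

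**Figure D5:**
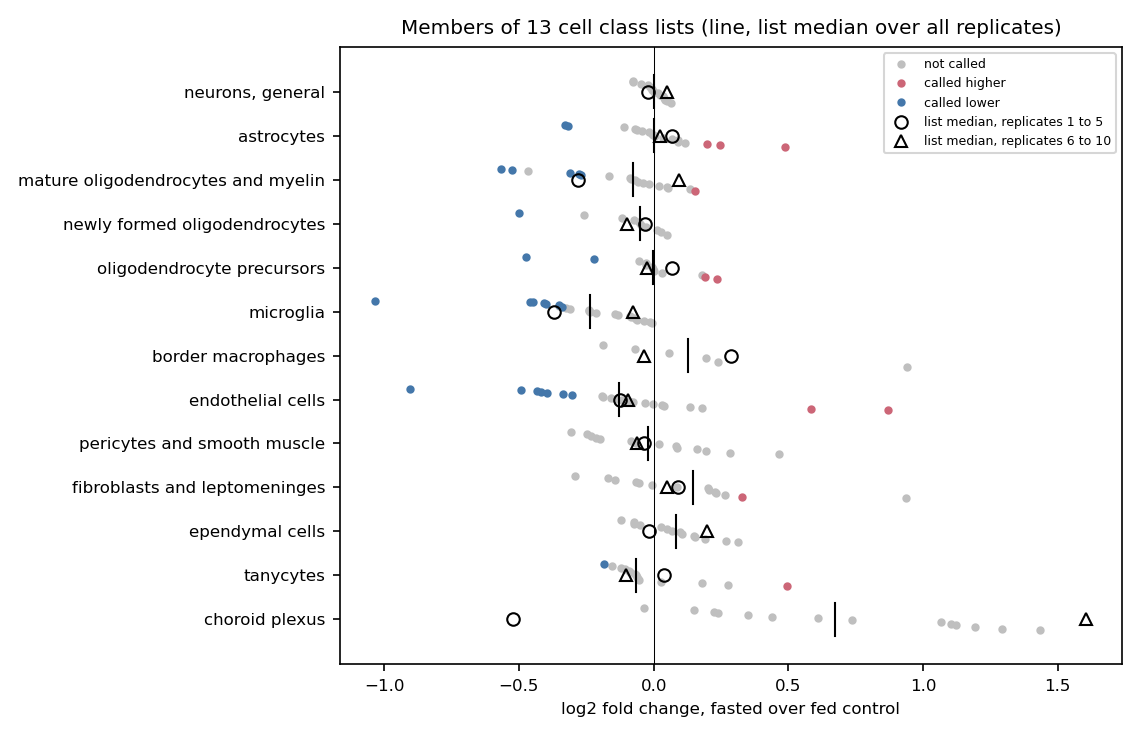
Log2 fold change, fasted over fed control, of every tested marker of 13 cell classes, with colours, lines and open symbols as in the plot of pathway lists. All 24 microglial markers lie left of 0, endothelial and oligodendrocyte markers spread to both sides, and the choroid plexus medians of the sets are far apart (-0.52 and 1.61) with 0 markers called.

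Over all libraries oligodendrocytes, which make myelin, showed falls in a few genes and no called fall in the abundant myelin genes Mobp and Mbp. Of 18 markers, 5 were called lower and 1 higher (background 1.68% and 2.2%), with a median of -0.08 (-0.28 and 0.09 in the sets). Ugt8a, which makes the myelin lipid galactosylceramide (chromosome 3, 125865271 to 125938619, minus strand), ran from 66.0 over 76.1 to 85.5 CPM in the fed and from 39.9 over 52.6 to 68.0 CPM in the fasted libraries, a fall of 0.52 ± 0.07 (adjusted p = 1.25e-06; -0.64 and -0.42 in the sets). The gap-junction gene Gjb1 fell by 0.31 ± 0.08, but its interaction was called, with -0.63 in replicates 1 to 5 against -0.02 in 6 to 10. Ermn fell by 0.27 ± 0.05 and Aspa by 0.28 ± 0.08 (-0.47 and -0.09 in the sets). The myelin gene Mobp rose by 0.15 ± 0.04, and myelin basic protein, Mbp, was at -0.23 in replicates 1 to 5 and 0.15 in 6 to 10 and was not called over all libraries. In replicates 1 to 5 alone edgeR called Mbp lower (adjusted p = 0.000653), and its interaction was called. Leaving out 1 library ended the call for Aspa in 15 of 20 cases (adjusted p up to 0.111), for Mobp in 10 (up to 0.0719) and for Gjb1 in 6, which were fed replicates 3 and 4 and fasted 1, 3, 4 and 5 (up to 0.0581).

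The 12 tested markers of oligodendrocyte precursors gave 2 called higher and 2 lower (background 2.2% and 1.68%). The transcription factor Sox10 was at 62.5 to 78.4 CPM in the fed and 43.0 to 64.0 CPM in the fasted libraries and fell by 0.47 ± 0.06 (-0.69 and -0.28 in the sets). Olig2 fell by 0.22 ± 0.06, whereas the precursor genes Pdgfra (0.19 ± 0.05) and Neu4 (0.24 ± 0.06) rose. Nkx2-2, from a separate list of newly formed oligodendrocytes, fell by 0.50 ± 0.08 (-0.72 and -0.31). It was the single call among the 10 tested markers of that list. The interaction was called for Sox10, Nkx2-2 and Pdgfra, each with the smaller change in replicates 6 to 10. The call for Pdgfra was lost without any 1 of 10 libraries (adjusted p up to 0.0852) and that for Neu4 without fasted replicate 4 (0.0514).

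Sox2, a factor of neural progenitors that adult glia also make (chromosome 3, 34650405 to 34652461, plus strand), had the lowest p of all genes called lower. It ran from 57.4 over 61.6 to 66.6 CPM in the fed and from 42.5 over 46.9 to 51.1 CPM in the fasted libraries. The groups did not overlap, and the fall was 0.40 ± 0.04 (adjusted p = 1.91e-09), -0.38 and -0.42 in the sets.

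Astrocyte markers split between rises and falls. Of 18 tested, 3 were called higher and 2 lower (background 2.2% and 1.68%), with a median of 0.00. The water channel Aqp4 fell by 0.33 ± 0.05, from 122 to 152 CPM in the fed to 92.9 to 118 CPM in the fasted libraries, and the transcription factor Sox9 by 0.32 ± 0.06. The gap-junction gene Gjb6 rose by 0.49 ± 0.06 (0.59 and 0.37 in the sets), from 84.4 to 103 to 109 to 148 CPM, and Agt, the precursor of angiotensin, by 0.25 ± 0.06. Neither Aqp4 nor Gjb6 overlapped between groups. Aldh1l1 rose by 0.20 ± 0.04 and glutamine synthetase, Glul, by 0.30 ± 0.04, but Aldh1l1 shares exon bases and Glul sequence with other genes, so both are uncertain.

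Other cell classes gave few calls or none. EdgeR called 0 of 15 general neuronal, 0 of 14 pericyte and smooth muscle, 0 of 14 ependymal, 0 of 14 choroid plexus and 0 of 6 border macrophage markers, with 1, 1, 0, 0 and 2 at an unadjusted p below 0.05. The choroid plexus gene Ttr, which encodes a carrier of thyroid hormone, ran from 2.39 to 889 CPM in the fed and from 1.89 to 1431 CPM in the fasted libraries, set by the 3 libraries named above. Among 57 collagens and basement membrane genes 4 were called higher (background 2.2%), Col1a2 (0.33 ± 0.09) and Col4a1 (0.20 ± 0.05) among them. Col1a2 lost its call without any 1 of 9 libraries (adjusted p up to 0.0902).

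Of 10 tested hunger-related genes, 2 were called higher, the peptides Agrp and Npy, and 0 lower (background 2.2% and 1.68%), with 4 of 10 values negative. Agrp (chromosome 8, 105566698 to 105637393, minus strand) ran from 1.69 over 2.92 to 3.71 CPM in the fed and from 2.71 over 4.41 to 6.30 CPM in the fasted libraries, a log2 fold change of 0.61 ± 0.16 (adjusted p = 0.0196). Its groups overlapped, since 5 of 10 fasted libraries lay above all fed ones, and the change was 0.88 in replicates 1 to 5 and 0.26 in 6 to 10. Over 10% of its exon sequence lies in a neighbouring gene too, and the call was lost without a filter on low counts, with limma-voom and without fasted replicate 3 (0.54, adjusted p = 0.0564). Npy (chromosome 6, 49822710 to 49829507, plus strand) ran from 8.26 over 9.12 to 11.1 CPM in the fed and from 9.43 over 11.8 to 17.1 CPM in the fasted libraries, a log2 fold change of 0.39 ± 0.09 (adjusted p = 0.00263; 0.50 and 0.26 in the sets). Again 5 fasted libraries lay above all fed ones.

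In replicates 6 to 10 alone neither Agrp (adjusted p = 0.386) nor Npy (0.109) was called. Among 15 satiety-related peptides and receptors edgeR called 0, with 2 at an unadjusted p below 0.05. Pomc was at 16.8 to 23 CPM in the fed and 10.3 to 27.9 CPM in the fasted libraries (-0.15 ± 0.12), and Cartpt at -0.47 in replicates 1 to 5 and 0.33 in 6 to 10, with the interaction called. The leptin receptor Lepr was at 0.32 ± 0.12 (adjusted p = 0.124). Among genes of secreted peptides and their processing, Vgf rose by 0.37 ± 0.06 (0.51 and 0.23 in the sets), the granule protein Scg2 by 0.14 ± 0.04 and the processing enzyme Pcsk1 by 0.20 ± 0.05, the last with 0.36 in replicates 1 to 5 and 0.03 in 6 to 10. Without fed replicate 3 or 8 or fasted replicate 1, 3, 4 or 5 Pcsk1 was not called (adjusted p up to 0.0671).

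Of 25 tested early genes of neuronal activity, 4 were called higher (background 2.2%). They were Fosb (0.69 ± 0.16), Fosl2 (0.42 ± 0.09), Klf4 (0.42 ± 0.12) and Dusp1 (0.48 ± 0.09), the last a glucocorticoid-responsive phosphatase as well. For Fosb, Fosl2 and Klf4 the interaction was called, with changes of 1.12, 0.68 and 0.78 in replicates 1 to 5 and 0.31, 0.16 and 0.07 in 6 to 10. Klf4 lost its call without fed replicate 1, 4 or 5 or fasted replicate 1, 2, 3 or 4 (adjusted p up to 0.0868). Fos itself was at 7.40 to 22.4 CPM in the fed and 13.5 to 22.2 CPM in the fasted libraries and was not called (0.32 ± 0.13).

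Of 75 tested potassium channel subunits 6 were called higher and 3 lower (background 2.2% and 1.68%), with a median of 0.00. Among them were rises of Kcnf1 (0.34 ± 0.06), Kcnt1 (0.26 ± 0.05) and Kcnk6 (0.45 ± 0.11) and a fall of Kcnk13 (-0.34 ± 0.07), a channel that microglia express. Of the GABA and glutamate receptor subunits edgeR called 0 of 30 over all libraries, with 1 at an unadjusted p below 0.05.

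Of 14 tested genes of thyroid hormone handling 3 were called higher and 0 lower (background 2.2% and 1.68%). The median was -0.02, and 8 of 14 values were negative. Hr, a corepressor of nuclear receptors that thyroid hormone induces in brain (chromosome 14, 70552212 to 70573548, plus strand), ran from 35.8 over 44.6 to 57.2 CPM in the fed and from 62.2 over 116 to 142 CPM in the fasted libraries, without overlap. Its log2 fold change was 1.24 ± 0.14 (adjusted p = 3.31e-07; 1.39 and 1.05 in the sets). Dio2, the enzyme of tanycytes and astrocytes that makes active thyroid hormone, rose by 0.50 ± 0.09 (0.50 and 0.49 in the sets). Klf9, given above, was the third.

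Several of the most changed genes belong to none of these groups. Arl4d, a small GTPase, rose by 1.65 ± 0.15, from 6.70 to 11.3 CPM in the fed to 13 to 38.5 CPM in the fasted libraries. F3, the tissue factor that starts blood clotting, rose by 0.79 ± 0.07 and Net1, an activator of the GTPase RhoA, by 0.73 ± 0.07. None of the 3 overlapped between groups. Itgad, an integrin of leukocytes, rose by 2.23 ± 0.32 at 0.106 to 1.22 CPM in the fed and 0.983 to 4.27 CPM in the fasted libraries, but it shares sequence and exons with other genes and is uncertain. Among the falls were Bfsp2 (-1.01 ± 0.15; exon overlap over 10%), the perivascular gene Cd248 (-0.84 ± 0.19), Plekho2 (-0.75 ± 0.08) and Trib2 (-0.32 ± 0.04). Plekho2 lay at 12.4 to 13.2 CPM in fasted replicates 1 to 5 and 10, at 16.5 to 22.8 CPM in fasted 6 to 9 and at 21.6 to 27.9 CPM in the fed libraries.

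The genes whose level followed Sgk1 and Agrp most closely, after the mean of each feeding group in each set was taken off, were Arl4d (r = 0.829), B230317F23Rik (0.814) and Trib1 (0.809) for Sgk1, and Sun1 (0.753), Hs3st3b1 (0.747) and Prrt2 (0.747) for Agrp. These are Pearson correlations over 20 libraries that were chosen as the highest of all genes, and the libraries share depth and composition.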

How the data were processed

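The authors deposited raw counts of read fragments per gene, 1 table per library. Per the file headers, featureCounts 2.0.1 counted fragments for each gene name of GENCODE vM12 (mm10), without strand and with multi-mapping reads counted at every place they aligned. STAR 2.7.10b is named in the submitters' processing notes. Coordinates are those of the count tables, 1-based. The tables hold 49568 gene names, 0 rows without a name and 0 columns of other samples. No 2 libraries were identical, and no pair within a control group agreed within sampling noise (chi-square divided by its degrees of freedom at least 2.53).

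Groups came from the labels. EdgeR 4.0.16 (R 4.3.3) fitted all 35 libraries (filterByExpr by group, minimum count 10, TMM, glmQLFit robust, glmQLFTest), with Benjamini-Hochberg adjustment over all genes tested and calls at an adjusted p below 0.05. TMM factors of the control libraries were 0.988 to 1.02. The sets and their interaction were fitted on 10 and 20 control libraries. Standard errors were derived from the F statistic. CPM are TMM-scaled. DESeq2 1.42.0 and limma-voom (limma 3.58.1) were alternatives, as were other scalings, filters, a replicate block, a set term and each library left out. The fit was tested on simulated data. Shares were compared by permutation (100000 resamples) in Python. Lists were described, not tested.

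Members and lists were chosen with earlier results of these data known. Named genes are the 5 markers, up to 4 called genes of at least 1 CPM per list (or the lowest p), the 8 largest and 5 lowest-p changes in each direction, the 3 extreme differences between sets per direction, the 3 genes most like Sgk1 and Agrp, and list members with a role. Unannotated gene models were left out, and not every gene chosen this way is reported here. A gene is called uncertain when 10% or more of its exon sequence lies in another gene too, or of its 50-base words occur in other genes' transcripts (GENCODE vM21).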

Additional observations from a re-analysis of the deposited data

Results flagged for a closer look

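Among 284 groups of 10 libraries examined, 16 had a library whose gap to the nearest other exceeded Dixon's 95% critical value, and chance gives about 1 in 20. In the fed libraries these were the highest values of Sult1a1 (replicate 2, 11.4 CPM), Slc2a1 (replicate 3, 133 CPM), Kcnf1 (replicate 7, 62.2 CPM), Neu4 (replicate 1, 17.8 CPM) and Ttr (replicate 2, 889 CPM, against at most 87.8 CPM in the other 9). The lowest values of C1qa (24.3 CPM) and Aldh1l1 (59.2 CPM), both in fed replicate 9, belonged here too. In the fasted libraries they were the highest values of Galnt15 (replicate 7, 9.38 CPM), Fas (replicate 5, 3.53 CPM), Slc7a5 (replicate 3, 87.6 CPM), Plekho2 (replicate 7, 22.8 CPM) and Col1a2 (replicate 1, 19.2 CPM), and the lowest value of Fos (replicate 6, 13.5 CPM). The share of hemoglobin genes in fasted replicate 1 (0.0787% of counts) and of the 100 most abundant genes in fasted replicate 5 (23.1%) also stood apart. The highest fasted value of Clec18a (replicate 10, 6.13 CPM) was the last.

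The fasting change differed between replicates 6 to 10 and 1 to 5 in 26 of 139 named genes, by edgeR's test of the difference itself. Over all genes tested it differed in 2956 of 17655 (16.7%). Some genes were named because this difference was called and extreme, so the count of 26 is a description. The difference is the log2 fold change in replicates 6 to 10 minus that in 1 to 5. It was negative for Fam107a (-0.36), Crh (-0.89), Cited2 (-0.27), Sesn1 (-0.26), Trp53inp1 (-0.42), Ccng1 (-0.28), Slc7a11 (-0.42), Fosb (-0.81), Fosl2 (-0.52) and Klf4 (-0.71). The same sign was found for Vgf (-0.27), Pcsk1 (-0.32), Gjb6 (-0.23), Pdgfra (-0.25), Hacd2 (-0.24) and Tmem79 (-1.22). It was positive for Cartpt (0.81), the microglial genes P2ry13 (0.57) and C1qa (0.55), the oligodendrocyte genes Gjb1 (0.62), Aspa (0.38), Mbp (0.38), Nkx2-2 (0.41) and Sox10 (0.41), and for Rln3 (2.06) and Clec18a (2.04). In Slc7a11 the larger fall was in replicates 6 to 10 (-0.56 against -0.14), while in the genes called over all libraries with a negative difference the smaller rise was there.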

How the results depend on the processing

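Fasting called 701 genes. Other scalings, filters and tools gave 611 to 820, 164 when a change was tested against a log2 fold change of 0.2, and 1088 with the respiratory-chain level as a term, chosen after seeing the data. Leaving out 1 library gave 572 to 785 genes for fasting, 1802 to 2858 in replicates 1 to 5, 457 to 1466 in 6 to 10 (457 without fed replicate 9, 558 without fasted 9, 649 without fed 7, 724 and 750 without fasted 7 and 8) and 2126 to 3259 for the difference between sets. That difference was called in 1918 genes in a fit of all 35 libraries and in 0 (edgeR; 773 at an unadjusted p below 0.05) with the respiratory-chain term; the cause was not tested. The replicate numbers did not pair the samples (same-number correlations -0.081 to 0.0299), and the replicate block gave 562, 1954, 766 and 2255 genes for fasting, both sets and their difference, and 2 rather than 5 mature oligodendrocyte genes called lower. Of 125 named called genes none changed sign under up to 35 alternatives, and 108 kept their call under all of them but those that used 1 set alone or a minimum change. Every alternative reused libraries that had made the call, so both counts are descriptions. The uncalled Crh (-0.19), Pomc (0.035), Cartpt (0.33), C1qa (0.17) and Mbp (0.15) changed sign in replicates 6 to 10, Ttr (-2.26), Rln3 (-0.63), Clec18a (-0.91) and Tmem79 (0.47) in 1 to 5, and Clec18a when fed 6, fed 7 or fasted 10 was left out (-0.11 to 0.35 over libraries left out 1 at a time). Depth limits genes near 1 CPM, about 20 counts, such as Cd180 and Slc38a5.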

Other observations

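Arrestin-domain and Krueppel-like factor genes, families of signal adaptors and transcription factors, were called higher in 8 of 19 tested members (background 2.2%) and lower in 0. Beside the members given above, Arrdc3 rose by 0.42 ± 0.06 (0.51 and 0.32 in the sets) and Klf13 by 0.33 ± 0.06 (0.34 and 0.31). Genes of fatty acid synthesis, elongation and desaturation moved both ways, with 2 of 32 called higher and 2 lower (background 2.2% and 1.68%). Acacb, the mitochondrial acetyl-CoA carboxylase whose product restrains fatty acid import, rose by 0.40 ± 0.08, from 7.92 to 11 CPM in the fed to 10.8 to 16.0 CPM in the fasted libraries. Srebf1, a transcription factor of lipid synthesis that insulin induces, fell by 0.16 ± 0.04 (-0.22 and -0.11 in the sets), and the desaturase gene Fads2 fell by 0.16 ± 0.04, while Hacd2 rose by 0.17 ± 0.05 (0.29 and 0.05 in the sets), a call lost without fed replicate 3, 4 or 6 or fasted replicate 1, 3 or 5 (adjusted p up to 0.085).

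Among named genes, the widest called differences between the sets were in low genes with large spread. The relaxin-family peptide Rln3 lay at 0.26 to 3.59 CPM in the fed and 0.778 to 4.20 CPM in the fasted libraries, with a log2 fold change of -0.63 in replicates 1 to 5 and 1.44 in 6 to 10. Clec18a (-0.91 and 1.13) and Tmem79 (0.47 and -0.76) were the other named ones. Choroid plexus markers had a median difference of 1.77 between the sets, with the difference called in 0 of 10 tested in both. All 13 protein genes of the mitochondrial genome had positive fold changes over all libraries (median 0.08), with 0 called by edgeR and 1 at an unadjusted p below 0.05.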
